A study of Mus musculus with 18 samples.

Results

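Ribosome footprints were compared between MIN6 cells exposed to cyclopiazonic acid (CPA) for 1 h and control MIN6 cells. MIN6 is a mouse insulinoma line that makes and secretes insulin, and CPA inhibits SERCA, the pump that loads calcium into the endoplasmic reticulum (ER). The treated group (CPA1) received 200 µM CPA in the medium for 1 h, and the control group received the vehicle, DMSO, for 18 h. No 1 h vehicle library was analysed here, so the agent and the length of exposure to any addition cannot be told apart. Each group held 3 Ribo-seq libraries, 1 from each of 3 numbered experiments, and the 2 groups make up 6 of the 18 libraries of the series. The other 12 were cells given CPA for 18 h (CPA18) and an mRNA-seq library for every treatment and experiment. Ribo-seq reads are the RNA fragments that ribosomes protect from RNase, so the reads of a gene are a share of all ribosomes counted in that library. A change in total protein synthesis cannot be seen on this scale. Reads were summed over the RefSeq transcripts of a gene, and the 8033 genes of 17207 with at least 1 read in each of the 9 Ribo-seq libraries were tested. All cells were of 1 line, and the replicates are experiments of that line.

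Loss of ER calcium disturbs protein folding in the ER. The kinase PERK then phosphorylates eIF2α, which slows initiation on most mRNAs while the mRNA of the transcription factor ATF4, with its short upstream reading frames, is translated more. ATF4 and its target CHOP (Ddit3) drive the integrated stress response (ISR), and GADD34 (Ppp1r15a) returns the phosphatase that reverses it. Calcium and kinase signals also switch on immediate early genes, whose short-lived mRNAs appear within minutes. A separate control acts through mTORC1 on mRNAs that begin with a C and a run of pyrimidines, the terminal oligopyrimidine (TOP) mRNAs, which encode the ribosomal proteins and elongation factors.

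The control libraries held 821147, 929649 and 1083297 counted footprints and the CPA1 libraries 519309, 392613 and 470602, so single genes were measured with fewer reads after CPA. Reads of 8 beta-cell markers were present in every library, and 9 acinar markers had 0 reads in all 6. The lists for fibroblasts, immune cells and endothelium had at most 5, 2 and 3 reads in a library. Ductal markers summed to 384 to 447 reads in the controls and 165 to 206 after CPA, all but at most 1 of them from Krt7, with Cftr at 0 in all 6. Markers of other islet cells summed to 99 to 289 reads and 50 to 104, most of them from Gcg. Scaled to library totals (RPM) both lists overlapped between the groups, at 413 to 472 and 327 to 525 for ductal markers and 121 to 267 and 119 to 221 for the other islet markers, and their part in the results was not tested. The control libraries of experiment 2 carry conflicting assay labels and were placed by title and column name. Lars2 took 0.0830% of the reads in the library used as footprints, below the mRNA-seq range of 4.75 to 54.8%.

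Footprints of 505 genes passed an adjusted p of 0.05 (edgeR quasi-likelihood test with the experiment as a block and Benjamini-Hochberg adjustment), which is 6.29% of the genes tested. Of these, 294 were higher after 1 h of CPA and 211 were lower, or 3.66% and 2.63% of the genes tested. Among the genes tested the rises were the larger changes, since 171 exceeded 1 on the log2 scale and 29 exceeded 2, while 50 falls passed -1. The genes that fell were abundant, with a median control level of 165 RPKM against 19.0 RPKM for those that rose and 9.96 RPKM for all genes. Genes with 0 reads in any of the 9 Ribo-seq libraries were not tested. A fall to 0 or a rise from 0 could therefore not be called. The CPA1 libraries held fewer reads, so this limit bears more on falls of genes with low counts. RPKM is reads per kilobase of transcript, scaled to the counted reads of the library. Of the 294 rises 281 had the same sign in all 3 experiments, as had 209 of the 211 falls. Rises made up 58.2% of the calls, but 48.2% with TMM scaling and 39.1% with DESeq2, so the balance between directions depended on the scale. Without experiment 2 the count was 245 (150 higher, 95 lower), and without its control library or its CPA1 library alone it was 287 or 321. Without the experiment block it was 235. Of the 505 calls 145 held in every one of 9 fits that left out 1 experiment or 1 library. The 3 CPA1 libraries lay above all 3 controls for 10.2% of the tested genes and below them for 8.33%, and 222 of the rises and 200 of the falls were of this kind.

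**Figure D1:**
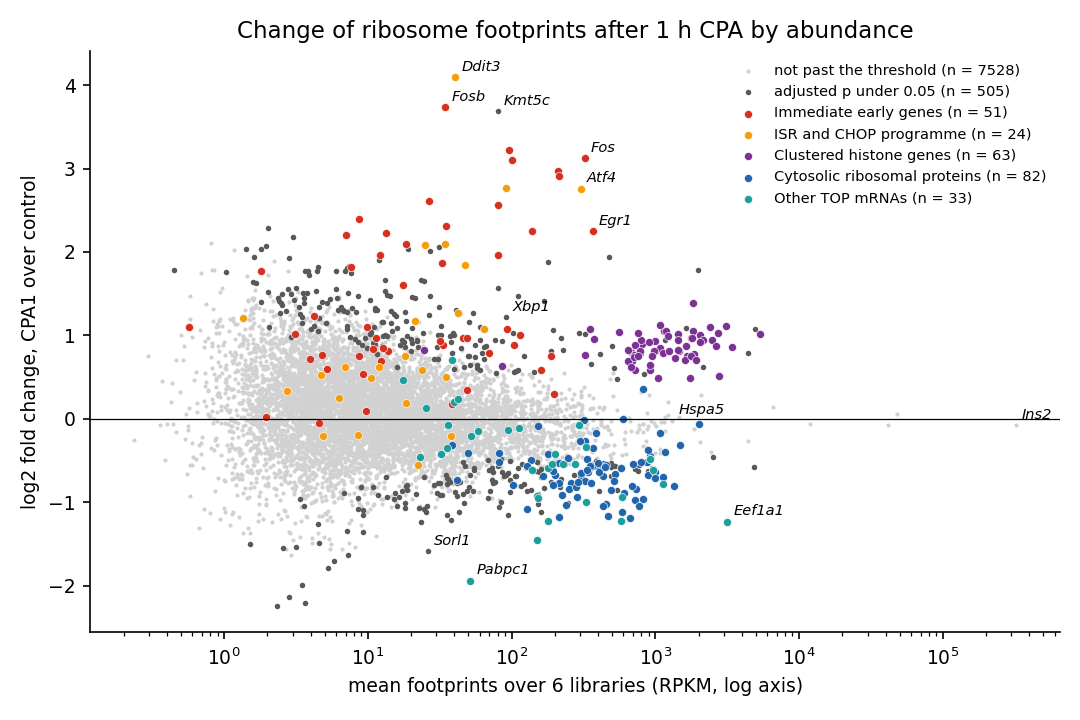
Each point is 1 of the 8033 genes, with the mean of the 6 control and CPA1 libraries (RPKM, log axis) against the log2 fold change of CPA1 over control. Immediate early and ISR genes lie at the top (Ddit3 at 4.09, Fosb at 3.74), histone genes in 1 tight group to the right, and ribosomal protein and TOP genes below 0 at high abundance.

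The ISR genes held the largest rise of all, that of Ddit3. The ISR and CHOP list had 34 members, of which 24 were tested. Of the 24, 9 rose (37.5%, beside 3.66% of all genes) and 0 fell, and 15 did not pass the test. The list's median log2 fold change was 0.62 beside 0.07 for all genes, and its share of counted footprints went from 0.101% ± 0.00959 to 0.258% ± 0.0445 (SD, n = 3). That difference had p = 0.1 in an exact two-sided permutation test, the smallest p that 3 against 3 libraries allow. The count was 8 or 9 when any 1 experiment was left out.

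Ddit3 (chr10:127290793-127296291, GRCm38.p6) encodes CHOP, a transcription factor of prolonged ER stress. Its footprints were 1.37, 2.42 and 8.49 RPKM in the control libraries and 55.5, 61.9 and 113 RPKM after CPA (log2 fold change 4.09, SE 0.40, edgeR adjusted p = 2.47e-21). Behind these values stood 1, 2 and 8 reads in the control libraries and 25, 21 and 46 after CPA. The gene had few reads in the controls, every CPA1 library was far above them, and experiment 3 was highest in both groups. Atf4 (chr15:80255184-80257545) rose from 64.6, 73.1 and 92.2 RPKM to 398, 532 and 663 RPKM (log2 fold change 2.76, SE 0.18, edgeR adjusted p = 3.28e-47). The control libraries lay close together, the treated ones formed a second group with no overlap, and the order of the experiments was the same in both. Reads were counted over whole transcripts, for this and every other gene. Those on upstream reading frames are therefore not separated from those on the coding sequence. Ppp1r15a, the phosphatase subunit that restores eIF2α, had 9.87, 11.01 and 17.7 RPKM in the controls and 38.6, 48.9 and 79.7 RPKM after CPA (log2 fold change 2.09, SE 0.24, edgeR adjusted p = 1.31e-15).

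Chac1, which degrades glutathione and is an ATF4 and CHOP target, was at 35.4, 13.6 and 21.6 RPKM and then 134, 130.3 and 213 RPKM (log2 fold change 2.77, SE 0.22, edgeR adjusted p = 9.19e-31). Trib3, a pseudokinase that feeds back on ATF4 and AKT, was at 13.7, 5.24 and 9.90 RPKM and 41.3, 28.6 and 50.8 RPKM (log2 fold change 2.08, SE 0.27, edgeR adjusted p = 9.01e-12). In both genes the lowest treated library exceeded the highest control. Atf5, another stress-regulated bZIP factor, went from 20.8, 9.82 and 31.1 RPKM to 56.02, 63.9 and 100.6 RPKM (log2 fold change 1.84, SE 0.24, edgeR adjusted p = 1.65e-11). Cebpb, Ddit4 and Gadd45a also passed, with log2 fold changes of 1.27, 1.18 and 1.07, although the Cebpb libraries of the groups overlapped. Cebpb, Atf5 and Gadd45a were named after their values had been seen.

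Atf3, a bZIP factor of the same response, had no read in 1 control library and was not tested. It had 3, 0 and 11 reads in the controls and 33, 16 and 23 reads after CPA, in smaller libraries. No value of a treated library fell within the control range. The 23 cytosolic aminoacyl-tRNA synthetases, which are ATF4 targets at later times, gave 0 calls by this test, and their median was -0.07. The 22 tested genes of asparagine, serine and one-carbon synthesis likewise gave 0 calls. Both counts compare with 6.29% of all genes called. Over all genes 1444 had an unadjusted p under 0.05. Of 20 amino acid transporters only Slc38a2, a glutamine carrier, passed, from 30.9, 28.5 and 19.9 RPKM to 65.6, 53.7 and 39.7 RPKM (log2 fold change 1.00, SE 0.19, edgeR adjusted p = 2.23e-05). That is 5% of the list, near the 3.66% of all genes that rose.

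**Figure D2:**
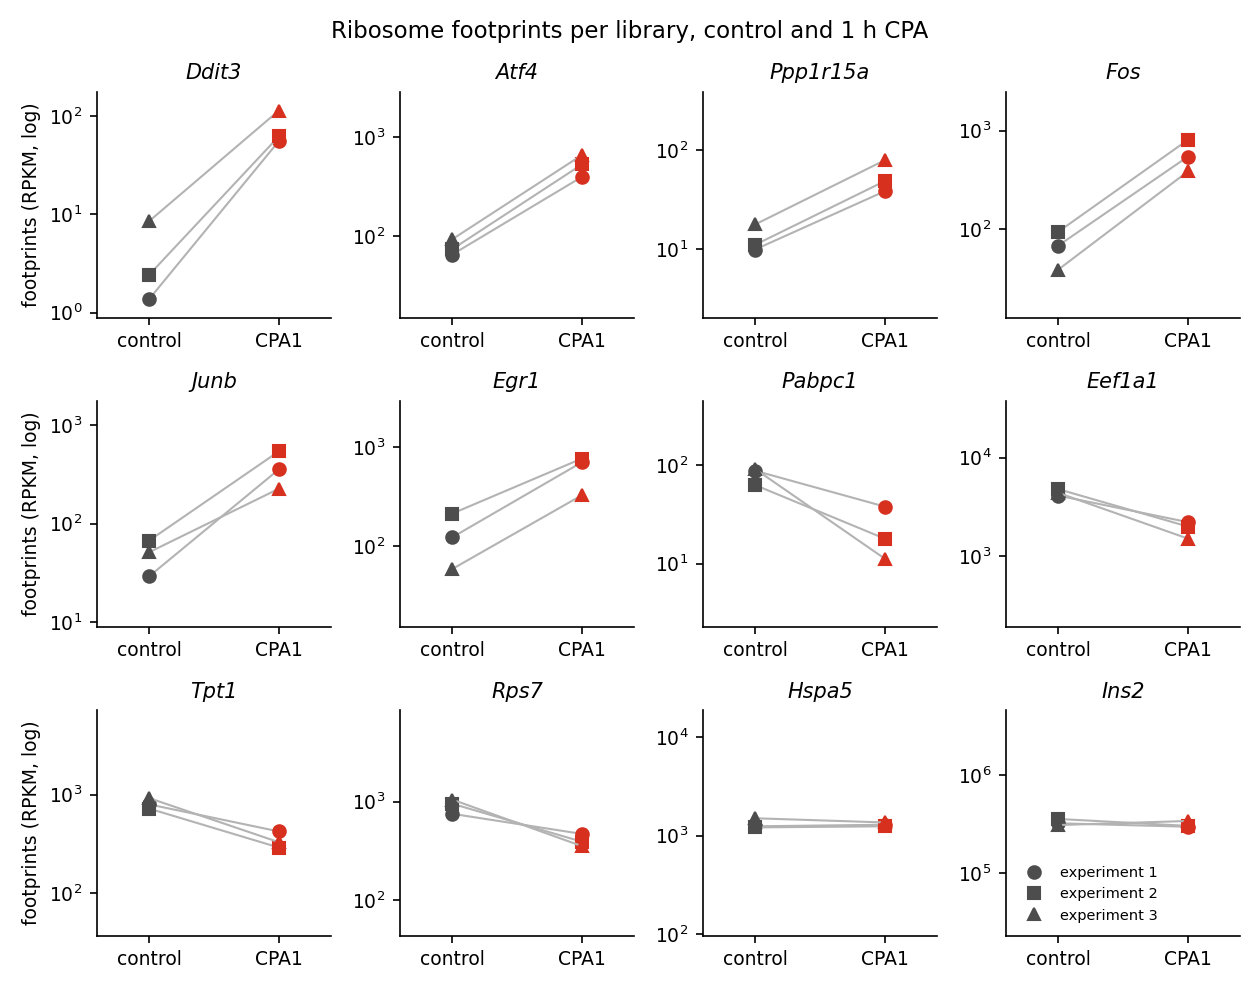
Footprints of 12 genes in each library (RPKM, log axes spanning the same fold range), with lines joining control and CPA1 libraries of 1 experiment. Ddit3, Atf4, Ppp1r15a, Fos, Junb and Egr1 rise in every experiment, Pabpc1, Eef1a1, Tpt1 and Rps7 fall in every experiment, and Hspa5 and Ins2 differ by -0.02 and -0.07 on the log2 scale.

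Of 14 sensors and transcription factors of the unfolded protein response Xbp1 alone passed (7.14%, near the 6.29% of all genes), the mRNA that IRE1 splices to make an active factor. It was at 53.5, 47.3 and 64.4 RPKM in the controls and 121, 130.0 and 134 RPKM after CPA, with no overlap (log2 fold change 1.22, SE 0.19, edgeR adjusted p = 2.42e-08). These reads do not separate the spliced from the unspliced form. Hspa5 encodes BiP, the main ER chaperone and the textbook target of ATF6 and XBP1. Its values of 1241, 1209 and 1498 RPKM and 1287, 1241 and 1358 RPKM interleaved (log2 fold change -0.02, SE 0.15, edgeR adjusted p = 0.965).

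Of 27 ER chaperones 0 rose and 5 fell, and of 21 disulfide isomerases and ER oxidases 0 rose and 4 fell. The falls were 18.5% and 19% of these lists, beside 2.63% of all genes. The list medians were -0.24 and -0.30. Without experiment 3 only 1 of the 5 and 0 of the 4 still passed. Canx, the lectin chaperone calnexin, fell from 264, 246 and 322 RPKM to 178, 163 and 134 RPKM (log2 fold change -0.81, SE 0.16, edgeR adjusted p = 2.35e-05). Dnajc10, an ER reductase with a J domain, had 26.7, 27.9 and 42.6 RPKM in the controls and 26.1, 10.1 and 7.34 RPKM after CPA (log2 fold change -1.24, SE 0.25, edgeR adjusted p = 6.96e-05). Experiment 1 hardly moved for Dnajc10, and without experiment 3, or either of its libraries, the gene no longer passed (log2 fold change -0.62 without both). Hsp90b1, P4hb and Pdia3 fell by smaller amounts, with log2 fold changes of -0.58, -0.60 and -0.69. All 3 lost the call without experiment 3 or its control library alone, and their weakest values were -0.25, -0.47 and -0.45. ER-associated degradation was mixed, with 3 of 30 members higher and 2 lower, or 10% and 6.67% beside 3.66% and 2.63% of all genes. Herpud1, which organises the degradation complex, was the largest of the rises, from 107, 93.6 and 74.7 RPKM to 242, 228 and 255 RPKM (log2 fold change 1.41, SE 0.17, edgeR adjusted p = 2.96e-13). Atp2a2 encodes SERCA2, the pump that CPA blocks, and its footprints went from 1039.9, 786 and 907 RPKM to 729, 678 and 401 RPKM (log2 fold change -0.62, SE 0.15, edgeR adjusted p = 0.00167). The fall was deepest in experiment 3, and without that experiment, its control library or its CPA1 library Atp2a2 no longer passed (log2 fold changes -0.36, -0.47 and -0.39).

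Immediate early genes rose as well. Of 63 members 51 were tested, 31 rose (60.8%, beside 3.66% of all genes) and 0 fell. The median log2 fold change of the 51 was 1.02, and the medians of the ratios within experiments 1, 2 and 3 were 1.25, 1.46 and 1.14. The list took 0.291, 0.356 and 0.387% of counted footprints in the controls and 1.14, 1.34 and 0.917% after CPA. Without experiment 2 the count of rises was 23. For 33 of the 51 genes all CPA1 libraries lay above all controls, as for 10.2% of all tested genes.

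The AP-1 family, whose Fos and Jun proteins pair, held the largest change of the list, that of Fosb. Fos (chr12:85473890-85477274) had 67.6, 93.3 and 38.5 RPKM in the controls and 542, 803 and 384 RPKM after CPA (log2 fold change 3.12, SE 0.18, edgeR adjusted p = 1.05e-56). Experiment 2 was highest and experiment 3 lowest in both groups, and the groups were well apart. Fosb had 1.64, 6.36 and 5.99 RPKM and then 70.4, 69.6 and 52.02 RPKM (log2 fold change 3.74, SE 0.27, edgeR adjusted p = 1.17e-37). Junb had 29.1, 67.2 and 51.2 RPKM and then 356, 543 and 226 RPKM (log2 fold change 2.91, SE 0.19, edgeR adjusted p = 7.29e-44). For both genes even the lowest treated library was well above the highest control. Jun and Fosl2 had log2 fold changes of 2.56 and 2.31, and Jund, which was named after its value had been seen, one of 0.89.

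Egr1, a zinc-finger factor induced by ERK and calcium, had 122, 212 and 57.99 RPKM in the controls and 706, 769 and 326 RPKM after CPA (log2 fold change 2.25, SE 0.17, edgeR adjusted p = 5.68e-36). The highest control and the lowest treated library lay closer here than for Fos, yet did not cross. Egr4 rose from 13.5, 27.4 and 14.5 RPKM to 162, 245 and 115 RPKM (log2 fold change 3.22, SE 0.23, edgeR adjusted p = 5.58e-40). Ier2, a small nuclear protein, went from 36.4, 70.5 and 35.9 RPKM to 322, 529 and 259 RPKM (log2 fold change 2.97, SE 0.20, edgeR adjusted p = 9.98e-44). Each of these was lowest after CPA in experiment 3. The nuclear receptor Nr4a1 and the dendritic mRNA Arc rose by 2.25 and 2.22 on the log2 scale, and were named after their values had been seen.

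Btg2, which recruits deadenylases, had 21.7, 23.03 and 14.1 RPKM in the controls and 217, 258 and 68.2 RPKM after CPA (log2 fold change 3.10, SE 0.21, edgeR adjusted p = 7.29e-44). Zfp36, which binds AU-rich elements and destabilises early mRNAs, had 5.52, 9.14 and 6.80 RPKM and then 52.4, 54.8 and 30.1 RPKM (log2 fold change 2.61, SE 0.34, edgeR adjusted p = 4.74e-12). Experiment 3 gave the smallest response for both. The MAP kinase phosphatases Dusp1, Dusp6, Dusp4 and Dusp5 had log2 fold changes of 1.96, 0.93, 0.76 and 0.58. These phosphatases were named after their values had been seen, and Dusp6, Dusp4 and Dusp5 lost the call without experiment 1 or 2 (lowest values 0.79, 0.62 and 0.35). Per1, which belongs to both the early and the clock list, had 4.95, 6.44 and 9.08 RPKM and then 32.97, 31.1 and 25.5 RPKM (log2 fold change 2.10, SE 0.26, edgeR adjusted p = 1.41e-12). Of 14 clock genes 4 passed, all higher (28.6%, beside 3.66% of all genes), namely Per1, Rora, Nr1d1 and Bhlhe41. Without experiment 2 or 3 only 1 of them passed. Rora lost its call in 8 of the 9 fits without an experiment or a library (1.22 to 1.63), Bhlhe41 in 5 (0.70 to 1.08) and Nr1d1 in 5 (0.39 to 1.66). Nr1d1 had 23.6, 15.1 and 8.30 RPKM in the controls and 20.8, 57.7 and 19.9 RPKM after CPA, so it was lower after CPA in experiment 1 and the groups overlapped.

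Of the 12 untested early genes 11 had a read in at least 1 library. Npas4, a factor that responds to calcium entry, had 6, 20 and 9 reads in the controls and 38, 21 and 16 after CPA. Fosl1 had 0 reads in all 3 controls and 1, 0 and 1 after CPA, and Zfp36l1 had 0, 0 and 1 read against 0 in every treated library. Fosl1 and Zfp36l1 cannot show a difference at this depth. These genes were chosen after their values had been seen.

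Promoters of Fos, Btg2, Dusp1 and Zfp36 are printed because the early genes moved together. Those of Ppp1r15a and Hspa5, which are not on the early list, are printed beside them. Every gene shown has a marked element in its window, so the printed set cannot show how common these elements are. The printed promoters run from 180 bases before to 20 bases after the annotated start, on the gene's strand, from RefSeq on GRCm38.p6. The windows are chr12:85473710-85473909 (plus strand) for Fos, chr1:134079136-134079335 (minus) for Btg2, chr17:26508453-26508652 (minus) for Dusp1, chr7:45526249-45526448 (minus) for Ppp1r15a, chr7:28379209-28379408 (minus) for Zfp36 and chr2:34771910-34772109 (plus) for Hspa5. Capitals mark TATAAA in Fos, the cyclic AMP response element TGACGTCA in Btg2, Dusp1 and Ppp1r15a, a CArG box (the serum response factor motif) in Zfp36, and an ER stress response element in Hspa5.
Fos: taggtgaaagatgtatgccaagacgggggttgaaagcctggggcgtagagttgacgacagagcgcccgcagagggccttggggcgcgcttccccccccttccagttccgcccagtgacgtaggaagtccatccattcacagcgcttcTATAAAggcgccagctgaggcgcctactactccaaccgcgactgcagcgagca
Btg2: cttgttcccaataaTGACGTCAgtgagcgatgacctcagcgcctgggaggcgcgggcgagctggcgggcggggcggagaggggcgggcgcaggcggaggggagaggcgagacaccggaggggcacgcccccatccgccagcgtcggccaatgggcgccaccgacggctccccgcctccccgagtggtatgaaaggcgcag
Dusp1: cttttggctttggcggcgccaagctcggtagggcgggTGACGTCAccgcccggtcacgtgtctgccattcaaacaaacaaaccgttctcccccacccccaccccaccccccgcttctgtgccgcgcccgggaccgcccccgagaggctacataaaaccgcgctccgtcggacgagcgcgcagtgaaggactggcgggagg
Ppp1r15a: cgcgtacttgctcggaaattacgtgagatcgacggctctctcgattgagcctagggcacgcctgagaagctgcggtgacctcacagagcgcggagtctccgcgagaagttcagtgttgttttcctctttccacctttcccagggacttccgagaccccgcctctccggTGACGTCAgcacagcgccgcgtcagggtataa
Zfp36: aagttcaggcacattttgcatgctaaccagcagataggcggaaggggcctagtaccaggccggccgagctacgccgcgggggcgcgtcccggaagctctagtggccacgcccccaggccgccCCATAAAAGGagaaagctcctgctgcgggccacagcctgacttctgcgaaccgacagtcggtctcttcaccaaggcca
Hspa5: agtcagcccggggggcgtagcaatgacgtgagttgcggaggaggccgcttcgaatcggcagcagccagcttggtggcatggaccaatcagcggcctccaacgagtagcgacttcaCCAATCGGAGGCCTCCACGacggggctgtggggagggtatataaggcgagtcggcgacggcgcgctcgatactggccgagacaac

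Windows of 300 bases from the table were searched on both strands, and 6492 of the 8033 tested genes had one. TGACGTCA was in 3 of the 21 windows of early genes called higher (14.3%), in 6.94% of those of all genes called higher, in 4.27% of those of all genes tested and in 1.79% of all 32851 windows in the table. A CArG box was in 2 of the 21, or 9.52%, and in 1.68% of the tested genes. TGATGNAA, a form of the element that ATF4 and C/EBP proteins bind, was in 2 of 9 ISR windows called higher and in 2.54% of the tested genes. The ER stress response element of Hspa5 was in 0.216% of the tested genes and 0.119% of all windows. AP-1 sites, as TGANTCA, were in 0 of the 21 early gene windows and in 5.31% of tested genes. These are matches of letters in a window, and with 21 and 9 genes the shares are coarse.

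The histone genes of the clusters, whose mRNAs lack a poly(A) tail and end in a stem-loop, rose with few exceptions. All 63 of their genes were tested, 61 rose (96.8%, beside 3.66% of all genes) and 0 fell. Their log2 fold changes ran from 0.49 to 1.38, with a median of 0.83. This list was added after the values had been seen. Their share of counted footprints was 2.97, 3.30 and 3.47% in the controls and 4.47, 5.97 and 7.98% after CPA, so all treated libraries lay above all controls. The list was chosen with these values known, so its exact two-sided permutation p of 0.1 cannot serve as support. The median ratios of experiments 1, 2 and 3 were 0.57, 0.80 and 1.14, and experiment 3 moved most. Without experiment 2 the count of rises was 50, and without experiment 3 it was 45. Genes of 1 histone type have near-identical coding sequences and may share reads, so the 61 calls are not 61 separate observations. Leaving the 63 genes out of the count gave 233 rises and 211 falls among 7970 genes.

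H4c14, an H4 gene, had 1021, 1118 and 899 RPKM in the controls and 2131, 2852 and 2994 RPKM after CPA (log2 fold change 1.38, SE 0.16, edgeR adjusted p = 2.61e-14). H1f3, a linker histone, had 1703, 2075 and 2009 RPKM and then 2923, 4569 and 5337 RPKM (log2 fold change 1.11, SE 0.15, edgeR adjusted p = 1.39e-10). H2ac19 and H3c11 had log2 fold changes of 1.12 and 1.10. The replacement histones, which are made outside S phase from polyadenylated mRNAs, gave 1 call in 7 (14.3%, beside 6.29% of all genes). It was H3f3b, which went from 193, 206 and 179.7 RPKM to 357, 385 and 440.3 RPKM (log2 fold change 1.03, SE 0.16, edgeR adjusted p = 5.78e-08). Asf1a, a chaperone that hands H3 and H4 to the replication fork, fell from 5.0, 9.81 and 10.1 RPKM to 2.64, 2.32 and 1.94 RPKM (log2 fold change -1.79, SE 0.55, edgeR adjusted p = 0.026). It no longer passed without either library of experiment 2 or of experiment 3 (log2 fold changes -1.77 to -1.50). Of 46 DNA replication genes 2 rose, Gins1 and Mcm10, both below 30 RPKM in every control and CPA1 library, which is 4.35% beside the 3.66% of all genes. They lost the call in 7 and 8 of the 9 fits without an experiment or a library (1.18 to 2.03 and 1.26 to 1.54). A TATAAA was in 34 of 58 histone windows (58.6%) and in 7.89% of those of the tested genes. It was in 22.04% of the windows of all genes called higher, and in 11.1% once the histone genes were left out.

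The list with the most falls was that of the ribosome itself. Of 85 genes for cytosolic ribosomal proteins 82 were tested, 55 fell and 0 rose, and 81 of the 82 lay below 0. The median log2 fold change was -0.63. Other TOP mRNAs, which encode elongation factors, initiation factor subunits and poly(A)-binding protein, gave 15 falls and 0 rises in 33, with a median of -0.48. Both shares compare with 2.63% of all genes. Ribosomal protein genes took 3.44, 3.63 and 3.70% of the footprints in the controls and 2.36, 2.20 and 2.49% after CPA. The other TOP mRNAs took 2.15, 2.23 and 2.20% and then 1.34, 1.23 and 1.10%. In neither list did a treated library reach the lowest control, and both had an exact two-sided permutation p of 0.1. Of the ribosomal protein genes 70 of 82 had no overlap between groups, all lower, as had 8.33% of all tested genes in that direction. The number that passed was 30 without the experiment block, 32 without experiment 1 and 19 without experiment 2, and 61 with TMM scaling or median centring. The limma test called only 4 genes in all with a pseudocount of 0.5 and 12 with 1. Rps6, Rps7, Rpl32, Eef1a1 and Pabpc1 were not called with either.

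The RefSeq starts of 8 of these genes are printed to show the tract by which TOP mRNAs are known. Each run holds 5 bases before the annotated start and 25 from it, on GRCm38.p6, with the tract in capitals from the annotated first base. The starts lie at chr7:108934410-108934439 (plus strand) for Eif3f, chr16:33056477-33056506 (plus) for Rpl35a, chr7:141447646-141447675 (plus) for Rplp2, chr3:90213624-90213653 (minus) for Rps27, chr11:48800355-48800384 (plus) for Rack1, chr4:86857343-86857372 (minus) for Rps6, chr7:4792960-4792989 (plus) for Rpl28 and chr17:33955641-33955670 (minus) for Rps18. The 8 were chosen among genes that have the tract and were called lower, so their direction was fixed by the choice. Their log2 fold changes ran from -1.23 for Eif3f to -0.80 for Rps18.
Eif3f: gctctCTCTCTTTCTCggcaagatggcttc
Rpl35a: ccttcCTCTTTCCgccatcttggcgcctgt
Rplp2: tcttcCTTTCgccgccggacgccgccgagg
Rps27: tcgctCCTTTCCggcggtgacgacctccct
Rack1: tctttCTTTTTCTCCacagggtcgtggtgg
Rps6: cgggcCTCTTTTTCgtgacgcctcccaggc
Rpl28: tgtctCTCTTTCCgtctccggccgccatag
Rps18: ccgctCTCTCTTCCacaggaggcctacacg

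A tract was counted as a C followed by at least 4 pyrimidines at the annotated start. It was present in 11.1% of the genes that fell and had a sequence, in 2.77% of the tested genes and in 2.51% of all windows in the table. It was in 15 of 61 ribosomal protein genes (24.6%), of which 11 were called lower, and in 25 of the 61 when the tract could begin within 5 bases of the annotated start. An annotated start can be off by some bases, so a gene without a match may still begin with a tract. Within the ribosomal protein list, genes with and without the match had median log2 fold changes of -0.69 and -0.61. Outside both lists, 161 genes had the match, 5 of these fell (3.11%, beside 1.745% of those without it) and their median was 0.13.

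Pabpc1 (chr15:36595658-36609581), the cytoplasmic poly(A)-binding protein, fell furthest among these genes. It had 87.8, 62.8 and 91.6 RPKM in the controls and 37.9, 17.9 and 11.2 RPKM after CPA (log2 fold change -1.94, SE 0.23, edgeR adjusted p = 7.01e-14). The treated libraries lay below all controls and fanned out, with experiment 3 lowest. Its paralog Pabpc4 had 15.7, 7.53 and 9.74 RPKM and then 4.44, 2.53 and 3.50 RPKM (log2 fold change -1.63, SE 0.44, edgeR adjusted p = 0.00665), and near-identical stretches of the paralogs may share reads. Without the control library of experiment 3 or the CPA1 library of experiment 1 Pabpc4 no longer passed (-1.44 and -1.43).

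Eef1a1 (chr9:78478453-78481724), which brings tRNA to the ribosome, had 4109, 4783 and 4385 RPKM in the controls and 2207, 1992 and 1503 RPKM after CPA (log2 fold change -1.23, SE 0.15, edgeR adjusted p = 4.62e-13). Eef1b2, its nucleotide exchange factor, had 217, 228 and 212 RPKM and then 94.6, 69.8 and 76.95 RPKM (log2 fold change -1.45, SE 0.19, edgeR adjusted p = 3.76e-12). Eef2, the translocase, had 1535, 1487 and 1275 RPKM and then 857, 819.7 and 818 RPKM (log2 fold change -0.78, SE 0.15, edgeR adjusted p = 1.80e-05). All 3 elongation factors were separated by more than the spread within either group. Tpt1 had 797, 722 and 923 RPKM and then 423, 290.4 and 329 RPKM (log2 fold change -1.23, SE 0.17, edgeR adjusted p = 1.10e-10).

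Rps7, of the small subunit, had 754, 955 and 1052 RPKM in the controls and 471, 392 and 354 RPKM after CPA (log2 fold change -1.18, SE 0.16, edgeR adjusted p = 2.41e-10). Rps6, a substrate of S6 kinase, had 309, 281 and 284 RPKM and then 178, 126 and 159 RPKM (log2 fold change -0.92, SE 0.18, edgeR adjusted p = 2.34e-05). Rplp0, of the stalk, had 464, 492 and 533 RPKM and then 303, 249 and 411 RPKM (log2 fold change -0.64, SE 0.16, edgeR adjusted p = 0.00325). None of these overlapped between groups. Rplp0 came closest, in experiment 3, and it no longer passed without the control or the CPA1 library of experiment 2 (log2 fold changes -0.59 and -0.48). Rps12, Rpl23a and Rpl32 had log2 fold changes of -1.17, -1.16 and -1.12.

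Among 51 initiation factors 6 fell, and the falls were Pabpc1 and the eIF3 subunits Eif3f, Eif3k, Eif3e, Eif3l and Eif3h. The 6 falls were 11.8% of the list beside 2.63% of all genes, and the 2 rises 3.92% beside 3.66%. At least Pabpc1, Eif3f and Eif3k are also on the other TOP list and were counted among its falls. Eif3e, Eif3l and Eif3h were named after their values had been seen. Eif3f had 257, 269 and 233 RPKM in the controls and 104, 106 and 113 RPKM after CPA (log2 fold change -1.23, SE 0.19, edgeR adjusted p = 1.07e-08). The 2 rises were Eif4g2, at 0.58 (named after its value had been seen, and not called without any 1 library of experiment 1 or 2), and Eif4ebp3, an inhibitor of cap binding, with 2.12, 1.87 and 4.81 RPKM and then 13.4, 15.5 and 5.54 RPKM (log2 fold change 1.81, SE 0.50, edgeR adjusted p = 0.0169). Eif4ebp3 no longer passed without any 1 library of experiment 1 or 2 (1.28 to 1.54). Ddit4, which restrains mTORC1, was the 1 rise among 25 genes of that pathway, from 10.8, 17.2 and 11.5 RPKM to 28.6, 28.7 and 31.5 RPKM (log2 fold change 1.18, SE 0.32, edgeR adjusted p = 0.00684). That is 4% of the list, near the 3.66% of all genes that rose, and Ddit4 was also counted in the ISR list. Without the control library of experiment 1 or the CPA1 library of experiment 3 Ddit4 did not pass (1.06 and 1.01). Mitochondrial ribosomal proteins, whose mRNAs are not of the TOP class, gave 0 calls in 78 by the same edgeR test, beside 6.29% of all genes. Their median was -0.07.

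**Figure D3:**
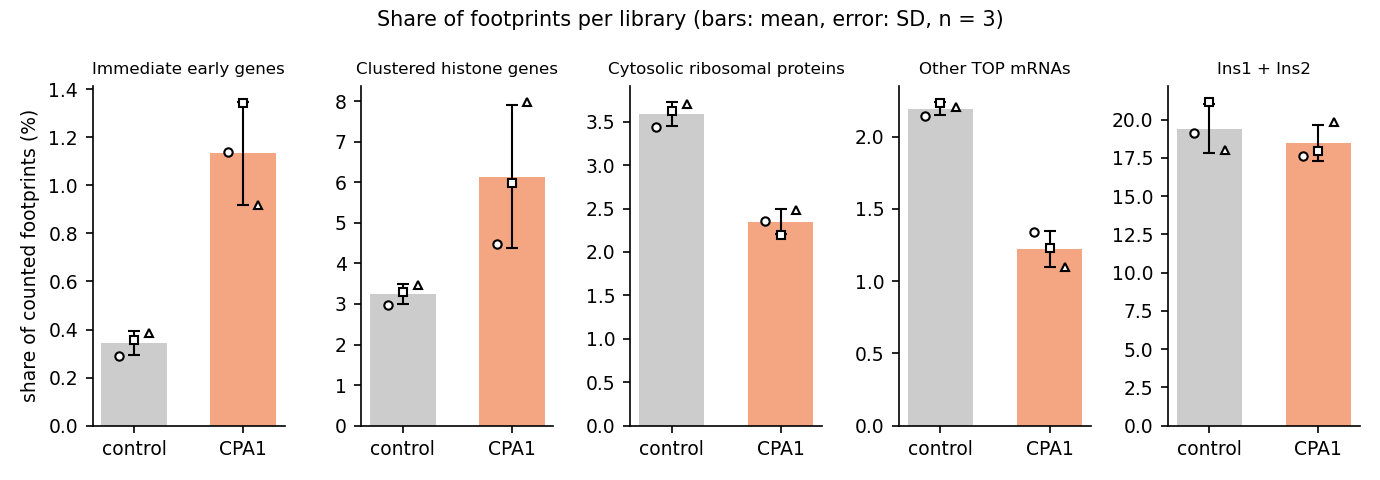
Share of counted footprints (%) taken by 4 gene lists and by Ins1 with Ins2, for each library (points, shapes by experiment) with mean and SD (bars, n = 3, axes from 0). Immediate early and histone shares are higher in every CPA1 library, ribosomal protein and other TOP shares are lower in every one, and the insulin shares overlap.

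Lysosomal genes had a median of -0.36, with 11 of 63 lower (17.5%, beside 2.63% of all genes) and 0 higher. Igf2r, which carries lysosomal enzymes from the Golgi, had 222, 265 and 167 RPKM in the controls and 118, 124 and 64.4 RPKM after CPA (log2 fold change -1.12, SE 0.16, edgeR adjusted p = 2.65e-10). Lamp1, of the lysosomal membrane, had 496, 449.9 and 643 RPKM and then 297, 296 and 267 RPKM (log2 fold change -0.86, SE 0.16, edgeR adjusted p = 7.43e-06). M6pr and Atp6v1c1 had log2 fold changes of -0.93 and -0.87, and both lost the call without experiment 3 or either of its libraries (weakest values -0.68 and -0.61). Of the 11 falls 5 still passed without experiment 1, 7 without experiment 2 and 4 without experiment 3.

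The translocon, signal peptidase and oligosaccharyltransferase gave 7 falls in 41 (17.1%, beside 2.63% of all genes) and 0 rises. Of these falls Stt3b is also on the list of ER-associated degradation. Rpn2, an oligosaccharyltransferase subunit, had 722, 629 and 743 RPKM in the controls and 362, 367 and 429 RPKM after CPA (log2 fold change -0.86, SE 0.15, edgeR adjusted p = 3.14e-06). Krtcap2, Stt3b and Ssr4 had log2 fold changes of -0.83, -0.76 and -0.63, and lost the call in 6, 4 and 5 of the 9 fits without an experiment or a library (weakest values -0.60, -0.56 and -0.57). Of the 7 falls 2 still passed without experiment 1, 3 without experiment 2 and 2 without experiment 3. In ER to Golgi traffic only Kdelr2, which returns ER proteins from the Golgi, passed among 62, at -0.68. That is 1.61% beside the 2.63% of all genes that fell, and Kdelr2 lost the call without the control library of experiment 3.

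Among genes in no list the sorting receptor Sorl1 fell from 39.7, 43.02 and 34.3 RPKM to 13.1, 16.1 and 10.2 RPKM (log2 fold change -1.59, SE 0.19, edgeR adjusted p = 2.03e-13). Lrp1, an endocytic receptor with a very long mRNA, had 10.2, 14.1 and 6.69 RPKM in the controls and 3.49, 5.13 and 3.42 RPKM after CPA (log2 fold change -1.34, SE 0.25, edgeR adjusted p = 6.34e-06). Both were low in all 3 treated libraries. Mfge8, a secreted protein, and Prcp, a lysosomal peptidase, had log2 fold changes of -1.70 and -1.36 that rested on few reads, 6, 1 and 1 and 10, 10 and 1 reads after CPA, and lost the call in 8 and 6 of the 9 fits without an experiment or a library (-2.74 to -1.37 and -2.03 to -0.69). The falls outside the ribosomal protein and other TOP lists had a median transcript length of 3281 nucleotides, against 2952 for all genes. Without the ribosomal protein, other TOP and histone lists, the share of genes that fell was 1.72% in quintile 1 of transcript length, the shortest, and 2.56% in quintile 5. Quintile 2 had the smallest share of falls, 1.26%. The share that rose was also larger in quintile 5, 3.49% beside 2.68% in quintile 1. The median log2 fold change was -0.015 in quintile 1 and 0.12 in quintile 5.

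Neither insulin gene passed the test. Ins2, the ancestral insulin gene, had 322415, 356867 and 309236 RPKM in the controls and 297466, 303291 and 340296 RPKM after CPA (log2 fold change -0.07, SE 0.16, edgeR adjusted p = 0.87). Ins1 had 43243, 47902 and 36289.8 RPKM and then 40202, 39919 and 40158 RPKM (log2 fold change -0.08, SE 0.15, edgeR adjusted p = 0.85). The libraries of the groups interleaved for Ins2. Together both genes took 19.4% ± 1.59 of footprints in the controls and 18.5% ± 1.19 after CPA (SD, n = 3), with p = 0.5 in an exact two-sided permutation test whose smallest p is 0.1. Of the 15 insulin and prohormone processing genes 3 fell (20%, beside 2.63% of all genes), Pam, Ctsl and Cpe. Ctsl is also on the lysosome list. Cpe, which trims proinsulin, had 2847, 2692 and 3185 RPKM and then 2019, 2267 and 2031 RPKM (log2 fold change -0.46, SE 0.15, edgeR adjusted p = 0.0361). Cpe and Pam lost their calls without any 1 of the 6 libraries (-0.57 to -0.37 and -0.95 to -0.72, left-out experiments included), and Ctsl without 5 of the 6 (-0.66 to -0.46), so 0 of the 3 falls held.

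Among 18 granins and granule proteins 4 fell and 1 rose, or 22.2% and 5.56% beside 2.63% and 3.66% of all genes. Ptprn2, a membrane protein of the granule, had 200.0, 194 and 206 RPKM in the controls and 126, 86.9 and 109 RPKM after CPA (log2 fold change -0.91, SE 0.16, edgeR adjusted p = 3.23e-06). Chgb and Scg2 had log2 fold changes of -0.59 and -0.57, and Nnat, a small ER protein that aids signal peptide cleavage, was the rise at 0.54. In the 9 fits without an experiment or a library Chgb lost its call in 4, Scg2 in 5 and Nnat in 7, with weakest values of -0.48, -0.37 and 0.44. Of 17 genes of glucose sensing and excitability 2 fell (11.8%, beside 2.63% of all genes). They were the GLP-1 receptor Glp1r at -0.76 and the KATP channel subunit Abcc8 at -0.51. Glp1r lost its call without experiment 3 or its CPA1 library (weakest value -0.55), and Abcc8 without 5 of the 6 single libraries (-0.63 to -0.43). The glucose transporter Slc2a2 had 89.1, 124 and 72.2 RPKM and 71.9, 85.2 and 61.2 RPKM, which overlapped (log2 fold change -0.37, SE 0.20, edgeR adjusted p = 0.311).

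Of 18 beta-cell transcription factors 3 rose (16.7%, beside 3.66% of all genes) and 0 fell. Foxa2, a pioneer factor of endoderm, had 63.5, 63.3 and 75.3 RPKM in the controls and 112, 142 and 159 RPKM after CPA (log2 fold change 1.03, SE 0.19, edgeR adjusted p = 9.30e-06). Mafa, an insulin gene activator with an unstable protein, had 113, 103 and 249 RPKM and then 257, 237 and 365 RPKM (log2 fold change 0.97, SE 0.16, edgeR adjusted p = 5.83e-07). The control of experiment 3 exceeded a treated library for Mafa, so the groups overlapped although each experiment rose. Pdx1 had 219.8, 247 and 299 RPKM and 247, 327 and 275 RPKM (log2 fold change 0.15, SE 0.16, edgeR adjusted p = 0.711).

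The cytosolic heat shock list had 4 of 32 higher (12.5%, beside 3.66% of all genes), among them the co-chaperones Dnajb1 and Bag3. Dnajb1 had 13.4, 17.9 and 16.3 RPKM in the controls and 40.4, 43.2 and 29.4 RPKM after CPA (log2 fold change 1.24, SE 0.26, edgeR adjusted p = 1.07e-04). Of 46 SR and hnRNP splicing factors 6 rose (13%, beside 3.66% of all genes) and 0 fell, with a median of 0.39. The medians of the ratios within experiments 1, 2 and 3 were 0.45, 0.59 and -0.06, and in experiment 3 only 21 of the 46 were higher. Without experiment 2 only 1 of the 6 rises still passed. Srsf7 had 34.3, 23.7 and 34.9 RPKM and then 72.9, 82.9 and 53.2 RPKM (log2 fold change 1.16, SE 0.23, edgeR adjusted p = 2.92e-05). Clk1, the kinase that phosphorylates SR proteins, had 6.65, 6.47 and 6.05 RPKM and then 22.1, 12.5 and 13.9 RPKM (log2 fold change 1.30, SE 0.41, edgeR adjusted p = 0.0316), and its libraries did not overlap. Clk1 lost its call without any 1 of the 6 libraries (1.05 to 1.44), and Srsf7 without experiment 2 (0.87).

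Sterol synthesis gave 4 rises in 27 (14.8%, beside 3.66% of all genes). They were Hmgcs1, Insig1, Stard4 and Srebf1, and Hmgcs1 was largest at 1.03. Stard4 and Srebf1 lost the call without any 1 library (0.70 to 1.13 and 0.45 to 0.63, left-out experiments included), so 2 of the 4 held. Txnip, which binds thioredoxin and follows glucose, had 89.2, 72.6 and 13.2 RPKM in the controls and 130.0, 310.2 and 48.6 RPKM after CPA (log2 fold change 1.47, SE 0.19, edgeR adjusted p = 7.16e-12). The Txnip libraries overlapped between groups, with experiment 3 low in both, and within each experiment the level was higher after CPA. Plk2, a kinase of the cell cycle and of early responses, and the cell cycle inhibitor Cdkn1a had log2 fold changes of 2.04 and 0.88, and Cdkn1a lost the call without either library of experiment 2 (weakest value 0.71). Proteasome and respiratory chain genes had 1 of 43 and 3 of 90 called, beside 6.29% of all genes.

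**Figure D4:**
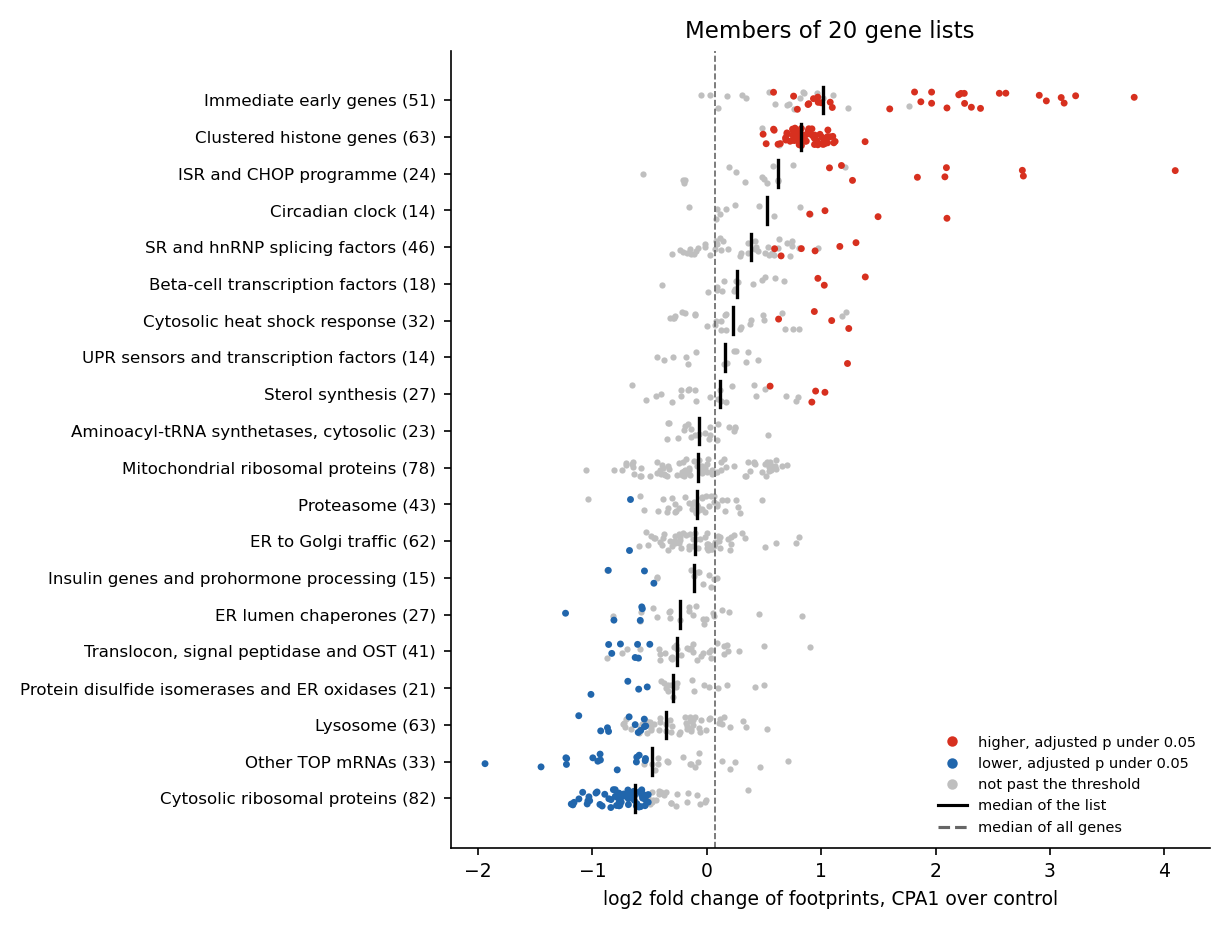
Log2 fold change of CPA1 over control for the tested members of 20 lists (number tested in parentheses), with the median of each list (black bar) and of all genes (dashed line at 0.07). Immediate early genes, clustered histones and the ISR list lie furthest right, and lysosomal, other TOP and ribosomal protein genes furthest left.

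Messenger RNA of the same treatments was set beside the footprints for 7794 genes with a read in every library of both assays. The mRNA-seq fit called 56 genes, 0.719% of them, 35 higher and 21 lower (0.449% and 0.269%). Lars2 took 4.75 to 54.8% of the reads of an mRNA-seq library. With all reads in the totals the median gene was at -0.12, and with Lars2 taken out 33 genes rose (0.423%) and 0 fell, with the median at 0.09. On full totals the mRNA-seq fit without the control library of experiment 2 called 18, all higher, and without the experiment block 0. The list values that follow are relative to the median gene of each assay. Ribosomal protein genes had a median of -0.70 in footprints and -0.02 in mRNA, and other TOP genes -0.55 and -0.02. Clustered histone genes had 0.75 in footprints and 0.98 in mRNA. Immediate early genes had 0.95 and 0.81, and the ISR list 0.55 and 0.46. Poly(A) selection preceded mRNA-seq, so histone values in that assay come from the selected RNA only.

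Of the 294 rises in footprints 289 were in this fit, 33 were also called higher in mRNA, and 234 lay above the median gene in mRNA. Of the 211 falls 210 were in it, 0 were called lower in mRNA by the same edgeR test, and 159 lay below the median gene. Footprint and mRNA changes were compared in 1 model by the interaction of assay and treatment. It called 7 of the 7794 genes (0.0898%), all with the footprint change above the mRNA change. The median gene's interaction was 0.16 on these full totals and -0.04 with Lars2 out, so full totals shifted the differences upward. With Lars2 out of the totals the interaction called 28 genes (0.359%), 22 of them with the footprint change below (0.282%). Of these 22 genes, 18 were ribosomal protein or other TOP genes.

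Eef1b2 was among these. Its mRNA was at 93.3, 207 and 241 RPKM in the controls and 89.3, 145 and 261 RPKM after CPA, with no common direction over the experiments. The interaction was -1.31, SE 0.31, edgeR adjusted p = 0.0577, and -1.51, SE 0.24, edgeR adjusted p = 0.00376 with Lars2 out of the totals. For Atf4 the mRNA rose from 69.5, 129.5 and 172 RPKM to 201, 261 and 589.6 RPKM (log2 fold change 1.46, SE 0.26, adjusted p = 9.43e-05, edgeR). The interaction for Atf4 was 1.29, SE 0.31, edgeR adjusted p = 0.0577, and 1.11, SE 0.22, edgeR adjusted p = 0.0154 without Lars2. Ddit3 had an mRNA log2 fold change of 1.85 and an interaction of 2.27, SE 0.55, edgeR adjusted p = 0.061. For Fos the mRNA log2 fold change was 2.66 and the interaction 0.46, SE 0.35, edgeR adjusted p = 0.886. Xbp1 mRNA was at 50.3, 110.4 and 142 RPKM and 76.3, 91.4 and 181.4 RPKM, and its interaction was 0.99, SE 0.31, edgeR adjusted p = 0.302.

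**Figure D5:**
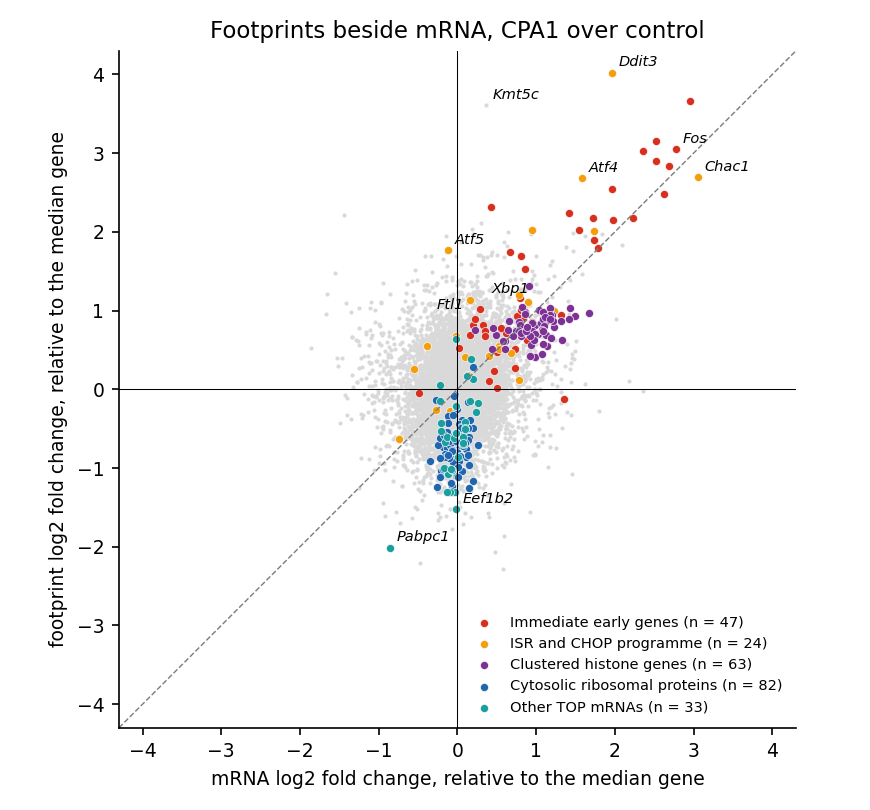
Log2 fold change of CPA1 over control in mRNA-seq (horizontal) and in footprints (vertical) for 7794 genes, each relative to the median gene, with the line of equal change dashed. Immediate early and histone genes lie along the line, ribosomal protein and other TOP genes drop below it at an mRNA change near 0, and Kmt5c and Atf5 lie above it.

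Libraries from cells given CPA for 18 h share the control libraries, and their values are given side by side only. At 18 h 30.4% of genes passed against control. The leading immediate early genes stood lower than at 1 h, with Fos at 22.6, 21.01 and 46.2 RPKM and Egr1 at 38.7, 27.2 and 68.2 RPKM. Their log2 fold changes from control were -0.77 and -1.10, against 3.12 and 2.25 at 1 h. Other early genes stayed above control, with Jun and Ier2 both at 1.15. Of the 51 tested early genes 17 were called higher than control at 18 h and 7 lower, with a median of 0.50. Over all 8033 genes these counts were 1948 and 495. ISR genes stood higher than at 1 h, with Ddit3 at 6.11, Atf4 at 3.76 and Ppp1r15a at 4.78 from control. Hspa5 was at 5025, 5408 and 4689 RPKM at 18 h (log2 fold change 1.94, SE 0.15, edgeR adjusted p = 2.04e-31).

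The ribosomal protein genes had a median of 0.83 from control at 18 h against -0.63 at 1 h, and between the CPA groups all 82 were higher at 18 h, as were 16.8% of all genes. Clustered histone genes had a median of 0.19 from control at 18 h, and 48 of the 63 were lower at 18 h than at 1 h, as were 5.39% of all genes. Ins1 and Ins2 were at -1.96 and -1.56 from control at 18 h.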

How the data were processed

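Footprint and mRNA-seq read counts were deposited as 1 table per experiment with a row per RefSeq transcript. Per the study's methods and the submitters' processing notes, the authors treated cells with cycloheximide at harvest, digested lysates with RNase If, aligned reads with Bowtie2 and used GRCm38; strand-specific counting was not stated in the sources used here, so overlapping antisense genes cannot be told apart. Per the study's methods the 3 experiments were independent. The edgeR p-values rest on the spread that remains once the block has taken out differences between experiments. The permutation p-values of the shares ignore the pairing by experiment. Those of gene lists are no separate support, because the lists were chosen with earlier results of these data known.

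From the deposited counts, 30741 transcripts were summed to 17207 genes by RefSeq symbol (31 had no match). RPKM used the total of counted reads and the transcript length. Genes with at least 1 read in each of the 9 Ribo-seq libraries were fitted with edgeR 4.0.16 (quasi-likelihood test, total counts as library size, experiment as a block) in R 4.3.3, and the Benjamini-Hochberg adjustment ran over all 8033 genes, with 0.05 as the threshold. The numbers pair libraries by the batch in the labels, and deviations of same-numbered control and CPA1 footprint libraries correlated at 0.128 to 0.162 in the 3 pairs. The mRNA-seq fit and the interaction used 9 and 18 libraries. The steps were run on simulated counts with 200 changed genes. These counts held no differences between experiments, so the run does not test the fit on data with such differences. Shares were compared by exact permutation in Python 3.11.15. Alternatives were DESeq2 1.42.0, limma 3.58.1 (log2 RPKM with a pseudocount of 0.5 or 1 RPKM), TMM, median centring, other filters and left-out libraries.

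Genes named were the 15 largest rises and 15 largest falls with a mean of at least 5 RPKM and the same sign in all 3 experiments, up to 4 called members of each of 37 lists, and a set of ISR, TOP, insulin and early genes whatever their result. The members and lists were chosen with earlier results of these data known. Promoter windows came from a RefSeq table of GRCm38.p6 that held 6492 of the tested genes. CPA18 footprints entered the fit for the estimate of spread.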

Additional observations from a re-analysis of the deposited data

Results flagged for a closer look

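The footprint change after 1 h of CPA differed from the mRNA change of the same treatments for 7 genes, by the interaction of assay and treatment in edgeR. Kmt5c, a histone H4 methyltransferase, had 10.4, 7.07 and 14.7 RPKM of footprints in the controls and 98.9, 36.6 and 312 RPKM after CPA, while its mRNA was at 7.05, 12.1 and 10.9 RPKM and 11.1, 10.9 and 12.9 RPKM. The difference on the log2 scale was 3.40, SE 0.50, edgeR adjusted p = 1.70e-05, and the treated footprint libraries spread widely, with experiment 3 highest. Atf5 had an mRNA level of 50.4, 96.8 and 125 RPKM and 49.4, 59.6 and 120.2 RPKM beside its rise in footprints, and a difference of 2.08, SE 0.36, edgeR adjusted p = 7.31e-04. Ftl1, the ferritin light chain, had 221, 148 and 268 RPKM of footprints and then 453, 276 and 562 RPKM, and a difference of 1.47, SE 0.30, edgeR adjusted p = 0.0103. These 3 genes, and Cenpb and Gm20594 below, also passed with Lars2 out of the totals.

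Zfand2a, a stress-induced zinc-finger protein, had 9.17, 5.74 and 11.01 RPKM of footprints and then 30.2, 23.2 and 25.3 RPKM, and a difference of 2.26, SE 0.44, edgeR adjusted p = 0.00547. Its mRNA was at 27.1, 176 and 41.98 RPKM in the controls and 26.4, 38.2 and 61.9 RPKM after CPA, and the control library of experiment 2 stood far above the others. Its adjusted p was 0.0583 with Lars2 out of the totals. Cenpb, a centromere protein, had a difference of 1.51, SE 0.33, edgeR adjusted p = 0.0227. The predicted gene Gm20594 had 459, 135 and 63.6 RPKM of footprints and then 1072, 412 and 706 RPKM, which overlapped, and a difference of 2.03, SE 0.36, edgeR adjusted p = 7.31e-04.

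Pdik1l differed by 3.06, SE 0.68, edgeR adjusted p = 0.028, but its footprints did not pass the test by themselves (log2 fold change 1.29, SE 0.46, edgeR adjusted p = 0.0696). Its mRNA was at 13.1, 206 and 14.2 RPKM in the controls and 2.07, 17.6 and 22.2 RPKM after CPA, so the control library of experiment 2, whose assay labels conflict, stood far above the others. No gene passed the interaction without the experiment block.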

How the results depend on the processing

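The direction of every called named gene held under each alternative tried, while the number of calls did not. Without the replicate block 235 genes passed (151 higher, 84 lower), 30 ribosomal protein genes fell, and neither the mRNA-seq fit nor the interaction called any gene (0 higher and 0 lower in each). DESeq2 called 353 genes, of which 138 were higher. The limma test called 4 genes (4 higher, 0 lower) with a pseudocount of 0.5 and 12 (11 higher, 1 lower) with 1. TMM and median centring called 569 and 548. Leaving out an experiment or a library gave 245 to 352 genes, 150 to 242 of them higher and 95 to 152 lower, and 19 to 44 ribosomal protein genes that fell. With Lars2 out of the totals the mRNA-seq fit gave 33 calls (33 higher, 0 lower) and the interaction 28 (22 lower). The mRNA-seq fit without the control library of experiment 2 gave 18 (18 higher, 0 lower).

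Of 114 named genes called, 71 kept the call without the block, 113 with TMM, 110 with median centring, 4 and 10 with limma, and 72 to 90 without an experiment or a library. DESeq2 gave an adjusted p for 100 of them, and 91 kept the call. Values near 0 changed sign when an experiment or library was left out. Hspa5 ranged from -0.0878 to 0.0894 and was 0.0456 without experiment 3 and 0.00601 without the CPA1 library of experiment 2. Ins1 ranged from -0.211 to 0.0140, Ins2 from -0.180 to 0.00650 (0.00183 without the CPA1 library of experiment 2) and Pdx1 from -0.000709 to 0.2998. List medians that changed sign were those of the sensors and factors of the unfolded protein response (-0.0486 to 0.0326, and -0.0171 without experiment 3), ER to Golgi traffic (-0.217 to 0.00995) and DNA replication (-0.00588 to 0.224). The cause of these changes was not tested. The CPA1 libraries held 392613 to 519309 reads, and the median tested gene stood at 9.96 RPKM in the controls.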
